A study of Saccharomyces cerevisiae with 4 samples.

Results

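The Ran GTPase cycle of the budding yeast Saccharomyces cerevisiae was described from 8 genes chosen by name and identifier, with earlier results of these data known, out of 7126 features in the gene count files: GSP1 (YLR293C), GSP2 (YOR185C), RNA1 (YMR235C), SRM1 (YGL097W), YRB1 (YDR002W), YRB2 (YIL063C), NTF2 (YER009W) and MOG1 (YJR074W). All 8 were measured in every library, with between 2054 and 44236 reads each, and all 8 entered the test. The study compared a wild-type strain (n = 2 libraries) with a strain labelled xpo1-1 mex67-5 (n = 2 libraries), which carries mutations in the export receptors Xpo1 and Mex67. Both strains grew at 25 °C overnight and spent 1 h at 37 °C before harvest, and poly(A) RNA was read as single reads of 50 bases. No library kept at 25 °C and no single mutant was analysed here, so the effect of either allele alone, and of the shift, cannot be told apart from the effect of the other. The labels give neither strain background, mating type nor selection markers, and they do not state whether replicate libraries were grown as separate cultures. The p-values below therefore refer to the spread between libraries alone, and that spread may be technical.

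Ran is a small GTPase that gives nuclear transport its direction. In the nucleus it is loaded with GTP by an exchange factor bound to chromatin, and in the cytoplasm an activating protein makes it hydrolyse that GTP, so the GTP-bound form is found mainly in the nucleus. Export receptors of the karyopherin family, Xpo1 among them, bind cargo together with Ran-GTP and release it when the GTP is hydrolysed, whereas import receptors release their cargo on binding Ran-GTP. Mex67, the main receptor for messenger RNA export, is not a karyopherin and does not use Ran in this way. In yeast, Gsp1 and Gsp2 are Ran itself, Srm1 (also called Prp20) is the exchange factor, Rna1 the activating protein, Yrb1 the cytoplasmic Ran-binding protein that assists Rna1, Yrb2 a nuclear Ran-binding protein that assists Xpo1, Ntf2 the carrier that returns Ran-GDP to the nucleus, and Mog1 a nuclear protein that binds Ran and acts on its nucleotide.

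The paralogs GSP1 and GSP2, left by the duplication of the yeast genome, encode nearly the same protein from clearly different DNA, which decides whether their reads can be separated. In build R64, GSP1 lies on chromosome XII (720771 to 721430, minus strand) and GSP2 on chromosome XV (681444 to 682106, minus strand). Each is a single coding exon, and neither overlaps another gene of the RefSeq annotation. Their proteins of 219 and 220 residues were identical at 215 of 219 aligned residues (98.2%), while their coding sequences matched at 551 of 660 aligned bases (83.5%) and differed at 109. The longest stretch without a difference was 32 bases, below the read length of 50, and none of the 50-base words of either coding sequence occurred anywhere else in the genome. The closest aligned windows of 50 bases still differed at 2 bases. The same search found 0 repeated words in the other 6 genes. The stretch around that longest identical run is shown first, with bases that differ between the paralogs in capitals, at chrXII:720999-721050 in GSP1 and chrXV:681672-681723 in GSP2, both on the minus strand.
GSP1: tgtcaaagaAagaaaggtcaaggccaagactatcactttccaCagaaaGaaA
GSP2: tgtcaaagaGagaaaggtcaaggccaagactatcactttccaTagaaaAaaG
Among windows of 60 bases without an alignment gap, the one with the most differences, 14, is shown next with the same use of capitals, at chrXII:721263-721322 in GSP1 and chrXV:681936-681995 in GSP2. Reads of 50 bases from this part of the 2 messages differ at many places.
GSP1: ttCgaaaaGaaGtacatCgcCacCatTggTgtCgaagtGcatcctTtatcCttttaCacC
GSP2: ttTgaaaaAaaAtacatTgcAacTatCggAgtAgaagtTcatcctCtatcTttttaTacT

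The paralogs also differ in the sequence before their coding regions. A window of 300 bases, which leaves out the 100 bases nearest the start codon, is shown for each from the R64 genome because the 2 messages moved in opposite directions, as described below. In them, 4 short motifs were searched on both strands: the stress response element CCCCT bound by Msn2 and Msn4, the heat shock element core GAANNTTC bound by Hsf1, and the elements GATGAG (PAC) and AAATTTT (the core of RRPE) that are common before ribosome assembly genes. Capitals mark matches. The GSP1 window lies at chrXII:721531-721830 on the minus strand.
GSP1: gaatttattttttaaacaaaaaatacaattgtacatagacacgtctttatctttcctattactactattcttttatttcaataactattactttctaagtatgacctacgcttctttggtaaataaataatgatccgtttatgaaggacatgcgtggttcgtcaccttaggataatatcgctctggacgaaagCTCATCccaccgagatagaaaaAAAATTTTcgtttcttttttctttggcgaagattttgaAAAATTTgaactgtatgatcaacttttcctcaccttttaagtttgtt
The GSP2 window lies at chrXV:682207-682506 on the minus strand.
GSP2: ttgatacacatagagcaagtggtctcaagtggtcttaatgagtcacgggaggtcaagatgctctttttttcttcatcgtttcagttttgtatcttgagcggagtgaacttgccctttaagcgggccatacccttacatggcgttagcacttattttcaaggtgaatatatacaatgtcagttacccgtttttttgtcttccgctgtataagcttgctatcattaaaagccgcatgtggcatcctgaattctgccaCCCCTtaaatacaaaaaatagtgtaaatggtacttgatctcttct
The GSP1 window held 1 PAC match, whose first base lies 207 bases before the start codon, and 3 RRPE matches at 185, 184 and 147 bases, of which the first 2 overlap on opposite strands. It held no CCCCT. The GSP2 window held 1 CCCCT, 145 bases before the start codon, and neither PAC nor RRPE. Across 6001 windows of the same length before protein-coding genes, CCCCT occurred in 23.5%, GATGAG in 18.4%, AAATTTT in 24.2% and GAANNTTC in 12.4%. Among the 8 Ran cycle genes, CCCCT occurred in 3 (GSP2, YRB1 and YRB2, with 2 matches in YRB1), GATGAG in 2 (GSP1 and MOG1), AAATTTT in 3 (GSP1, SRM1 and NTF2) and GAANNTTC in 0. The windows of RNA1, YRB2, NTF2 and MOG1 run for 165, 147, 104 and 241 bases into the coding sequence of the gene next to them. A match is a description of letters and not a site that was tested.

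At 37 °C, messages of 7 of the 8 Ran cycle genes fell in xpo1-1 mex67-5 and 1, GSP2, rose. The falls ran from 1.59-fold in MOG1 to 5.91-fold in RNA1, and GSP2 rose 2.75-fold. Calls were made with edgeR's quasi-likelihood test at a Benjamini-Hochberg adjusted p under 0.05 over 6563 genes, a rule that 93.1% of all genes tested passed, with 46.3% lower and 46.8% higher, so that passing it sets no gene apart. When a log2 change of 1 or more was required as well, 6 members were lower and 1 was higher, against 25.5% of all genes lower and 27.8% higher. Wild-type and mutant libraries were without overlap for each of the 8, as they were for 96.4% of all genes. The median log2 change was -1.68 over the 8 and 0.01 over all genes tested. Summed over the 8, reads per 1000000 scaled reads (CPM) were 2833 and 2772 in the wild-type libraries and 996 and 1018 in the mutant libraries, 2.78-fold lower. These are shares of a library, so fewer messages per cell and more of other messages cannot be told apart.

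**Figure D1:**
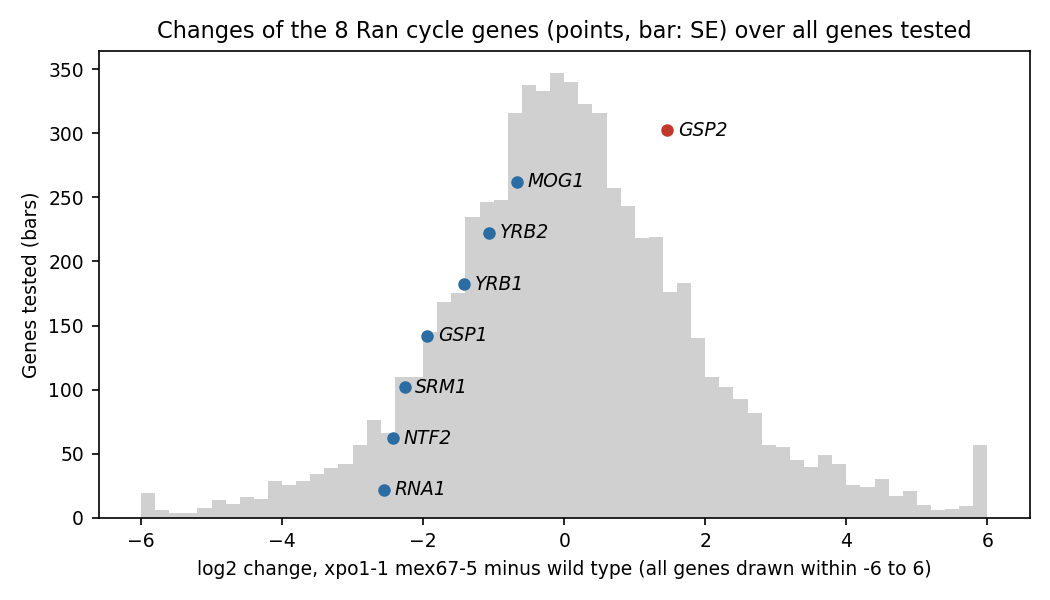
Log2 change between xpo1-1 mex67-5 and wild type of the 8 Ran cycle genes (points, with SE as a bar that is mostly within the point) over the distribution of 6563 genes tested (grey bars, number of genes; genes beyond 6 in either direction are drawn in the end bars). The height of a point only separates the names; 7 genes lie between -2.56 and -0.67 and GSP2 lies at 1.46.

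Of whole-library facts that bear on these values, the libraries held 49321384 to 62205252 reads assigned to genes, and the biological coefficient of variation between replicates was 2.95%. Of the mutated receptor genes, CRM1, which encodes Xpo1, had 219 ± 2.57 CPM in the wild type, and 189 ± 1.94 for the mutant (SD, n = 2). MEX67 had 154 ± 3.25 against 1925 ± 30.9. Counts per gene do not separate mutant from wild-type alleles, so these levels do not test the labels. The strains also differed in genes that mark the mating type: 6 of 6 a-cell genes were higher in the mutant and 4 of 4 alpha-cell genes lower. The shares over all genes tested were 46.8% higher and 46.3% lower. In summed level, the a-cell genes were at 63.8 and 62.7 CPM in the wild-type libraries and 449 and 440 in the mutant libraries, and the alpha-cell genes at 1728 and 1729 and 164 and 167, with no marker at 0 in any library. The difference in these markers follows the genotype in every library, so it cannot be told apart from the alleles. Whether the strain difference has a part in the Ran cycle values was not tested.

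In the wild type most Ran message came from GSP1, and in the mutant it came from GSP1 and GSP2 in nearly equal amounts. GSP1, which is essential in yeast, was at 880 and 898 CPM in the wild-type libraries and at 224 and 239 CPM in the mutant ones. Both mutant libraries were far below both wild-type libraries. The fall was 3.84-fold, a log2 change of -1.94 (SE 0.04) with a Benjamini-Hochberg adjusted p in edgeR's quasi-likelihood test of 7.9e-18. GSP2, which is dispensable for growth, was at 77.9 and 74.0 CPM in the wild-type libraries and at 213 and 205 CPM in the mutant ones. Here both mutant libraries were above both wild-type libraries. The log2 change was 1.46 (SE 0.04), with a Benjamini-Hochberg adjusted p in edgeR's quasi-likelihood test of 2.8e-16.

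GSP2 supplied 8.13% of the reads of both paralogs in wild-type library 1 (3860 reads beside 43620 of GSP1; exact Clopper-Pearson 95% interval 7.89 to 8.38%) and 7.61% in library 2 (3646 beside 44236; 7.38 to 7.86%). In the mutant it supplied 48.7% in library 1 (13368 beside 14103; 48.1 to 49.3%) and 46.1% in library 2 (10379 beside 12125; 45.5 to 46.8%). The intervals cover counting error only, and the intervals of replicate libraries did not overlap in either group, so replicates differed by more than that error. In the mutant the share was 39.5 percentage points higher on average, at 47.4 ± 1.8% against 7.87 ± 0.364% (SD, n = 2). The exact two-sided permutation test gave p = 0.333, the smallest value that 2 libraries against 2 can give. A share within a library does not depend on how libraries are scaled to each other. In reads, GSP1 exceeded GSP2 by 11.3 and 12.1 times in the wild-type libraries and by 1.05 and 1.17 times in the mutant libraries.

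Taken as a sum, Ran message fell by less than GSP1 alone. The summed reads of both genes were 958 and 972 CPM in the wild type against 437 and 444 CPM in the mutant. With the 2 genes replaced by their sum in the same fit, the log2 change was -1.13 (SE 0.04), a 2.19-fold fall with a Benjamini-Hochberg adjusted p in edgeR's quasi-likelihood test of 4.3e-15. The sum does not depend on which paralog a read was given to.

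**Figure D2:**
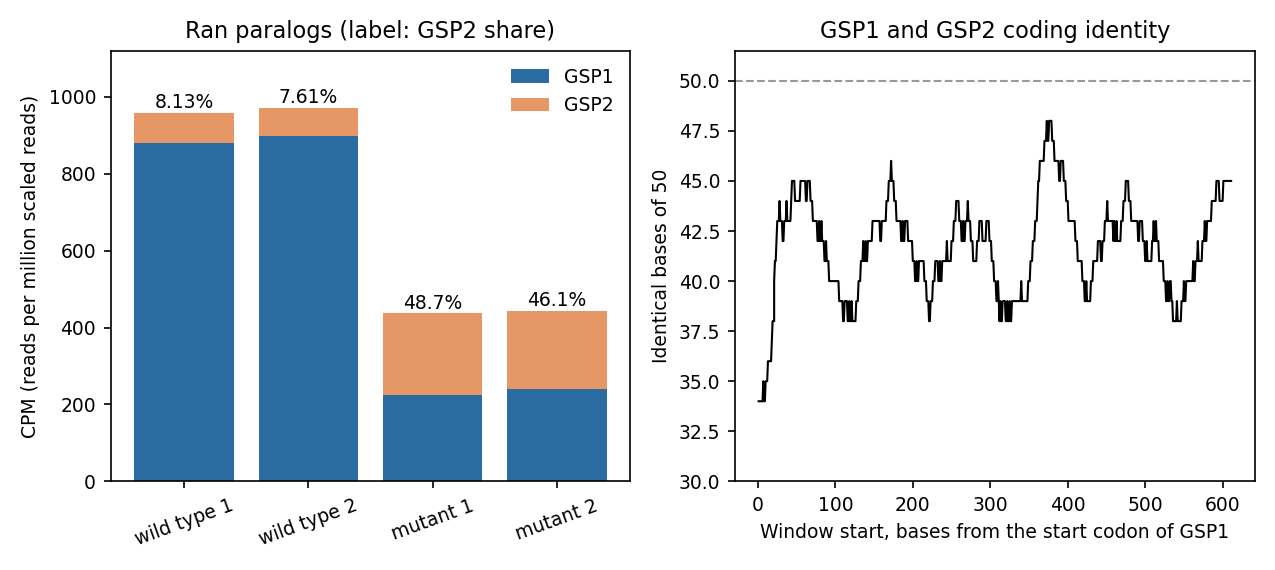
Left, CPM of GSP1 (blue) and GSP2 (orange) stacked for each library, with the GSP2 share of the reads of both printed above; the share is 7.61 to 8.13% in the wild type and 46.1 to 48.7% in the mutant. Right, identical bases in each window of 50 aligned coding bases, by its distance from the start codon of GSP1; the axis starts at 30, and no window reaches the dashed line at 50.

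The enzymes that set the nucleotide of Ran both fell, RNA1 the most of the 8. RNA1 (chromosome XIII, 741512 to 742735), the activating protein, was at 261 and 263 CPM in the wild-type libraries and 44.4 and 44.2 CPM in the mutant ones. Replicates differed by far less than the groups. Its log2 change was -2.56 (SE 0.04; edgeR quasi-likelihood test, Benjamini-Hochberg adjusted p 6.9e-20), and 6.69% of all genes tested had a lower one. SRM1 (chromosome VII, 321782 to 323230), the exchange factor, was at 224 and 222 CPM in the wild-type libraries and 46.3 and 47.1 CPM in the mutant ones. The mutant libraries again lay well below, at a 4.78-fold fall, a log2 change of -2.26 (SE 0.04) with a Benjamini-Hochberg adjusted p in edgeR's quasi-likelihood test of 3.7e-19.

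Per kilobase of coding length, the proportion of exchange factor to activating protein message was higher in the mutant. The ratio of SRM1 to RNA1 was 0.727 and 0.713 in the wild-type libraries and 0.881 and 0.899 in the mutant ones. The groups did not overlap, and the mean ratio was 1.24 times as high in the mutant. Ran message in relation to these enzymes changed more. GSP1 plus GSP2 stood to RNA1 as 6.82 and 6.84 to 1 in the wild type and as 18.2 and 18.6 to 1 in the mutant, and to SRM1 as 9.38 and 9.60 against 20.7 and 20.7. The exact permutation p was 0.333 for each of these ratios, the smallest the design allows. They compare amounts of message, and protein was not measured.

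Both Ran-binding proteins fell by less than the enzymes. YRB1 (chromosome IV, 453045 to 453650) was at 822 and 773 CPM in the wild-type libraries and 293 and 304 CPM in the mutant ones. That is a 2.68-fold fall, with a log2 change of -1.42 (SE 0.04; edgeR quasi-likelihood test, Benjamini-Hochberg adjusted p 5.8e-16). Its wild-type replicates were the farthest apart of the 8 in CPM (SD 34.7), but still far above the mutant. YRB2 (chromosome IX, 242761 to 243744), the cofactor of Xpo1, was at 165 and 151 CPM in the wild-type libraries and 74.8 and 75.7 CPM in the mutant ones, 2.10-fold lower, with a log2 change of -1.07 (SE 0.04; edgeR quasi-likelihood test, Benjamini-Hochberg adjusted p 6.0e-14). With upper-quartile scaling the log2 change of YRB2 was -0.97, which leaves 5 members lower by 1 or more. In relation to YRB2, Ran message per kilobase overlapped between groups, at 8.67 and 9.57 in the wild-type libraries and 8.69 and 8.74 in the mutant ones, and in relation to YRB1 it was 1.07 and 1.15 against 1.37 and 1.34.

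The carrier fell with the enzymes, and MOG1 fell least. NTF2 (chromosome V, 172115 to 172492), which brings Ran-GDP back into the nucleus, was at 338 and 326 CPM in the wild-type libraries and 60.9 and 62.3 CPM in the mutant ones. The fall was 5.40-fold, a log2 change of -2.43 (SE 0.04; edgeR quasi-likelihood test, Benjamini-Hochberg adjusted p 1.4e-19). Ran message per kilobase was 1.62 and 1.70 times that of NTF2 in the wild type and 4.10 and 4.08 times in the mutant. MOG1 (chromosome X, 573095 to 573751) was at 65.3 and 63.0 CPM in the wild-type libraries and 40.0 and 40.6 CPM in the mutant ones, without overlap. Its log2 change was -0.67 (SE 0.04; edgeR quasi-likelihood test, Benjamini-Hochberg adjusted p 5.4e-11), and 32.6% of all genes tested had a lower one. Ran message per kilobase stood to that of MOG1 as 14.6 and 15.4 to 1 in the wild type and as 10.8 and 10.9 to 1 in the mutant, without overlap and 0.725 times as high in the mutant (exact permutation p = 0.333).

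The levels of the 8 genes can be set against each other only per length. In reads per kilobase of coding length per 1000000 scaled reads (RPKM), GSP1 (1347 ± 19.1; SD, n = 2) and YRB1 (1317 ± 57.3) headed the wild type and overlapped, followed by NTF2 (879 ± 21.9), RNA1 (214 ± 1.60), YRB2 (161 ± 9.49), SRM1 (154 ± 0.919), GSP2 (115 ± 4.13) and MOG1 (97.6 ± 2.46). YRB2 and SRM1 overlapped too, and the other neighbours in that order did not. In the mutant the order was YRB1 (492 ± 12.5), GSP1 (351 ± 16.3), GSP2 (315 ± 8.06), NTF2 (163 ± 2.62), YRB2 (76.5 ± 0.630), MOG1 (61.3 ± 0.573), RNA1 (36.2 ± 0.0960) and SRM1 (32.2 ± 0.374), with no overlap between neighbours. In this order GSP2 moved from place 7 to place 3, RNA1 from 4 to 7 and SRM1 from 6 to 8.

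Against 5841 protein-coding genes tested, the RPKM of RNA1 was above 85.9% of genes in the wild type and above 36% in the mutant, and that of SRM1 above 79.5% and 31.4%. The RPKM of GSP2 was above 73.0% and then 94.0%. YRB1 stayed among the most abundant messages, above 97.5% and 96.4%, and so did GSP1, above 97.6% and 94.8%. Of the summed RPKM of the 8 genes, YRB1 made up 30.7 ± 0.797% in the wild type, and 32.2 ± 0.293% for the mutant (SD, n = 2). The share of GSP1 was 31.5 ± 1.00% against 23.0 ± 0.695%, that of GSP2 2.67 ± 0.0493% against 20.6 ± 0.863%, and that of NTF2 20.5 ± 0.149% against 10.7 ± 0.00209%.

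**Figure D3:**
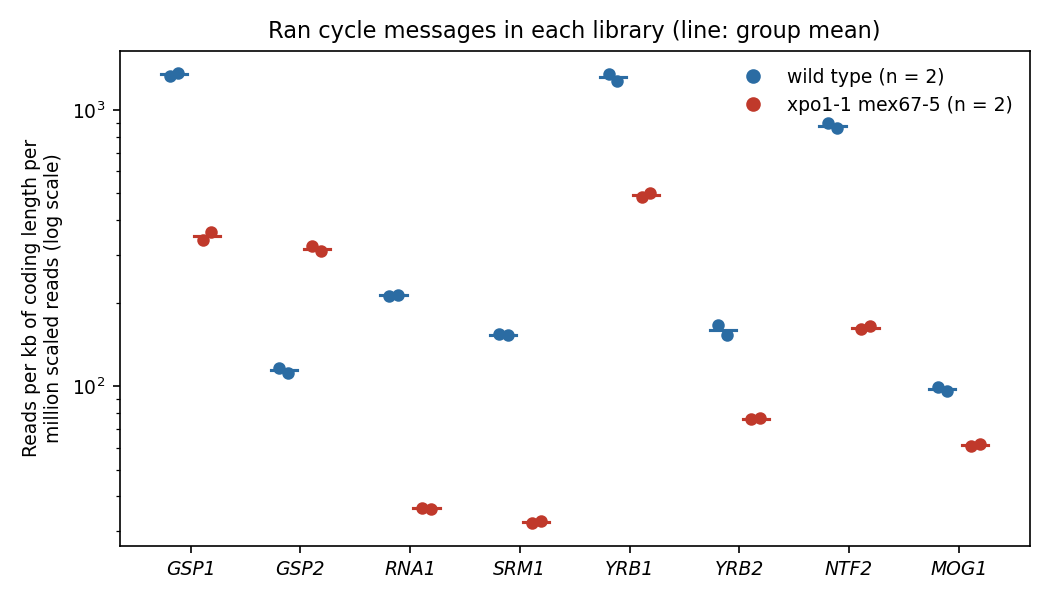
RPKM of the 8 Ran cycle genes on a log scale in each wild-type library (blue points) and each xpo1-1 mex67-5 library (red points), with the mean of each group as a line. The red points lie below the blue ones for every gene but GSP2, where they lie at 309 and 321 RPKM against 112 and 117.

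Other proteins that bind Ran went both ways. NUP2, a nuclear pore protein with a Ran-binding domain, fell 3.66-fold, from 299 ± 1.13 to 81.9 ± 0.375 CPM (SD, n = 2), and YRB30, another Ran-binding protein, rose 1.75-fold, from 52.0 ± 1.18 to 91.0 ± 1.23 CPM. The karyopherins, here the receptors that Ran acts on and importin alpha (SRP1), fell in 12 of 15 genes and rose in 3 (CSE1, MTR10 and KAP120). Of all genes tested, 46.3% were lower and 46.8% higher. The median log2 change of the karyopherins was -0.33. The count of lower karyopherins was 10 with upper-quartile scaling and 11 when at least 10 reads were required in every library. Most of these changes were small; KAP123 (5.90-fold) and SXM1 (2.02-fold), both import receptors, fell the most. The largest rise was in MTR10, an import receptor of the shuttling mRNA-binding protein Npl3, at a log2 change of 0.46, followed by KAP120 at 0.30. CSE1, which uses Ran-GTP to return importin alpha to the cytoplasm, was at 160 ± 4.25 against 192 ± 8.10 CPM.

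Small GTPases outside the Ran cycle fell in 25 of 32 genes and rose in 7, against 46.3% of all genes tested lower and 46.8% higher, with a median log2 change of -0.77. The count of lower genes was 24 with DESeq2, upper-quartile scaling, library size alone and a replicate block. It was also 24 when at least 10 reads were required in every library. ARF1 (6.81-fold) and SAR1 (5.99-fold), which drive the budding of transport vesicles, fell the most. ARL3, an Arf-like GTPase, rose the most at 3.79-fold, followed by YPT53 at 2.24-fold, with a mean log2 CPM of 2.86. Among genes with a mean log2 CPM of 3 or more, YPT11 came next after ARL3, at 1.92-fold. YPT11 is a Rab-like GTPase of organelle inheritance. Of these 32, 8 had a lower log2 change than GSP1 and 24 a higher one, while 1 had a higher log2 change than GSP2. Of other paralog pairs, RAS1 fell with a log2 change of -2.22 and RAS2 rose with 0.77, the only other pair of the 3 examined that moved in opposite directions. ARF1 and ARF2 fell together (-2.77 and -2.23), and so did YPT31 and YPT32 (-2.35 and -0.70).

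Regulators of those GTPases moved both ways. Of 14 genes listed as exchange factors, 4 fell, 9 rose and 1 (LTE1) was not called. The shares over all genes tested were 46.3% lower and 46.8% higher. The median log2 change of the 14 was 0.38. ROM1, an exchange factor of Rho1, rose 6.62-fold, and CDC24, that of Cdc42, rose 4.70-fold. The Arf exchange factor GEA1 fell 3.95-fold and the Sec4 exchange factor SEC2 fell 3.12-fold. SRM1, at -2.26, lay below all 14. Of 24 activating proteins, 7 fell, 16 rose and 1 (SEC23) was not called, with a median of 0.24; DESeq2 called 14 of them higher. BAG7, which acts on Rho1, rose 9.81-fold and the Ras regulator IRA2 6.20-fold. GCS1, of the Arf GTPases, fell 3.47-fold and BFA1, of the mitotic exit GTPase Tem1, 2.83-fold. BUB2, in the same list and the partner of BFA1 in acting on Tem1, rose 1.57-fold. RNA1, at -2.56, lay below all 24. These ranks describe the lists and carry no test.

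**Figure D4:**
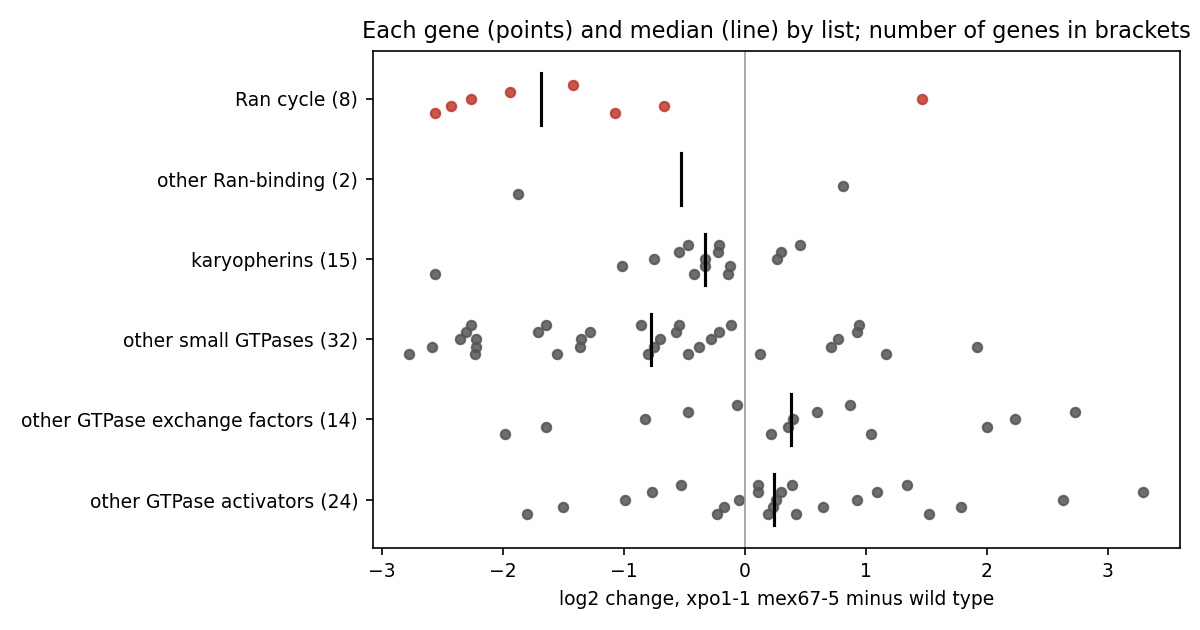
Log2 change of each tested gene (points) and the median of the list (line) for the Ran cycle, other Ran-binding proteins, karyopherins, other small GTPases, their exchange factors and their activating proteins, with the number of genes in brackets. The Ran cycle median is -1.68, that of other small GTPases -0.77, and those of exchange factors and activating proteins 0.38 and 0.24.

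The library kit does not mark the strand, so neighbours matter for how the counts can be read. None of the 8 genes overlaps another RefSeq gene, and gaps to the nearest coding gene ran from 44 to 3702 bases. Of the 16 neighbours, 10 fell and 6 rose, with a median log2 change of -0.62, and 10 moved in the same direction as the Ran cycle gene beside them. Of all genes tested, 46.3% were lower and 46.8% higher, and nothing is read from these counts about the neighbours. The most marked was YOR186W, on the other strand 1004 bases upstream of GSP2, which was at 0.908 and 0.913 CPM in the wild-type libraries and 30 and 30.6 CPM in the mutant ones, 33.2-fold higher. On the other side of GSP2, the serine synthesis gene SER1 fell 3.31-fold, so the neighbours of GSP2 moved in opposite directions. TAF9, a subunit of the transcription factor TFIID on the other strand 235 bases upstream of RNA1, fell 6.64-fold, from 126 and 122 CPM to 18.5 and 18.8 CPM, and RNH1, a ribonuclease H 199 bases downstream, fell 2.84-fold.

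Both neighbours of SRM1 moved against it, with USE1 2.02-fold and TOS8 3.56-fold higher. Both neighbours of YRB1 did so too, the trehalase gene NTH1 at a log2 change of 0.30 and RCR2 at 1.43. EFM4, whose coding region ends 44 bases from the end of YRB2 on the other strand, fell with a log2 change of -0.98, close to the -1.07 of YRB2. ARC15, of the actin-nucleating Arp2/3 complex, fell with -1.64 on the other side of YRB2. Around NTF2, SEC3 rose (0.90) and YER010C fell (-0.61). Around GSP1, SEC72 (-0.25) and ATP14 (-0.87) fell by less than GSP1, and around MOG1, OPI3 (-1.24) and HOC1 (-0.64) fell. Whether reads of a neighbour entered the count of a Ran cycle gene was not tested.

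**Figure D5:**
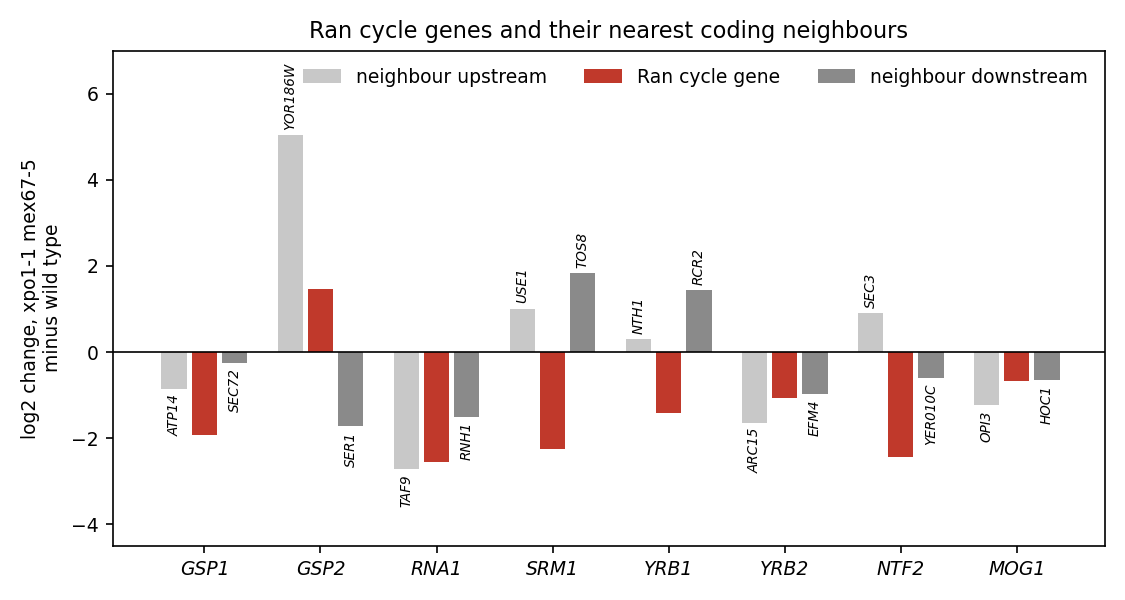
Log2 change of each Ran cycle gene (red bar) between that of the nearest coding gene upstream (light grey) and downstream (dark grey), in the direction of the Ran cycle gene. YOR186W beside GSP2 stands at 5.05, and both neighbours of SRM1 and of YRB1 lie on the other side of 0 from the gene itself.

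Genes whose log2 CPM over the 4 libraries, centred on their own mean, lay closest to a member were found among 5513 genes with a mean of at least 10 CPM. Closest to RNA1 were NHP2 (Euclidean distance 0.0125, 269 and 273 against 45.6 and 45.3 CPM), UTP13 and YLR363W-A. Closest to SRM1 were CDC42 (0.00769, 111 and 109 against 22.7 and 23.2 CPM), PRE5 and YHR020W, closest to GSP1 were NRT1 (0.0234), SVS1 and SHO1, and closest to GSP2 were YHR049C-A (0.0248), YCR006C and MLG1. With 4 libraries in 2 groups this measure holds little beyond the size of the change, and 156 genes lay within 0.25 of RNA1, 215 of SRM1, 264 of GSP1 and 356 of GSP2.

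None of the 8 genes has an intron record in the intron count files, and each is a single coding exon, so the study's comparison of splicing has no value for them.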

How the data were processed

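Poly(A) RNA of 4 libraries, 2 wild type and 2 xpo1-1 mex67-5, was read as single reads of 50 bases (labels' protocols). Per library, the authors deposited 1 file of raw read counts for genes (7126 features) and 1 for introns; the intron counts were used only to look up whether the 8 genes have an intron. Tools named in the submitters' processing notes, without roles, are STAR 2.5, featureCounts, bcl2fastq 2.17 and DESeq2 1.8.2, with build R64. The treatment of reads with several placements is not stated there, and the coordinates behind features without a RefSeq entry could not be checked for overlap. Positions and sequences came from the RefSeq genome and annotation of R64; 85.3% of the 327 nuclear intron starts in the files equal a gap between its exons.

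Groups came from the genotype in the titles. Counts of replicates differed beyond sampling noise (chi-square over its degrees of freedom 10.8 for wild type, 7.23 for mutant), so each library was 1 sample. All genes were fitted together with edgeR 4.0.16 in R 4.3.3: filterByExpr, TMM scaling, robust quasi-likelihood F-test, two-sided, group as the only term, Benjamini-Hochberg over 6563 genes. The SE is the log2 change divided by the square root of F. CPM and RPKM use TMM-scaled library sizes and RefSeq coding lengths. The fit was tested on simulated data beforehand.

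The 8 genes and all lists were chosen with earlier results of these data known. Named were the 8 members, CRM1 and MEX67, both other Ran-binding genes, the 2 largest rises and 2 largest falls of each list that were called and had a mean log2 CPM of 3 or more, 3 paralog pairs, the nearest coding neighbours, and the 3 closest genes by pattern for GSP1, GSP2, RNA1 and SRM1. CSE1, SRP1, YPT53, LTE1, SEC23 and BUB2 were named after their values were seen. Alternatives were other scalings and filters, DESeq2 1.42.0, a replicate block, stricter thresholds and leaving out each library. Figures were drawn with matplotlib 3.10.9.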

Additional observations from a re-analysis of the deposited data

How the results depend on the processing

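The 25 results were the log2 changes of the 8 genes and of the GSP1 plus GSP2 sum, the GSP2 share and counts of calls. The counts covered the 8 genes, the other lists and all genes. The alternatives run gave 273 values, many of them counts of calls, which have no direction. No log2 change and no difference in the GSP2 share changed direction. In fits with 2 libraries in each group, each log2 change kept its side of adjusted p 0.05, and each count stayed within 1.5 times. The log2 change of YRB2 was -0.97 with upper-quartile scaling, so 5 members instead of 6 were lower by 1 or more. The log2 change of GSP2 ranged from 1.42 to 1.56, that of RNA1 from -2.58 to -2.46 and that of MOG1 from -0.70 to -0.57. Upper-quartile scaling moved the median of all genes from 0.01 to 0.12 and gave the highest value for each of the 8. Against a fold of 1.5 (edgeR glmTreat, Benjamini-Hochberg), MOG1 had the largest adjusted p of the 8, 0.011. DESeq2 called 5979 genes against 6109. Leaving out each library in turn put GSP1 between -1.99 and -1.90 and GSP2 between 1.42 and 1.49; where 1 library was left in a group, it was assumed to vary like the other group. Replicate numbers showed no sign of pairing the libraries (correlation of deviations across genes -0.03), though so few libraries cannot exclude a pairing. A replicate block left the log2 change of GSP2 at 1.46 and the number of genes called at 6109. With 2 libraries a group, the exact tests of shares and ratios cannot pass 0.05.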
